A study of Mus musculus with 16 samples.

Results

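The genes described here are Mbp, Mobp, Cldn11, Mal, Mag, Mog, Opalin, Cnp and Ermn, 9 genes for structural proteins of central nervous system myelin. They were chosen by name as a set often used to mark myelinating oligodendrocytes, by a rule that uses no measured value but with earlier results of these data known. All 9 were found among the 32207 genes of the deposited table and passed the filter on low counts, which kept 16339 genes. RNA was sequenced from brain oligodendrocytes of OF-1 mice, an outbred strain, sorted with magnetic beads by the surface antigen O4 at postnatal day 16. The exposed pups received bisphenol A (BPA, a plasticizer chemical that binds estrogen receptors) through their mothers from gestational day 7 and during lactation. The labels put the dose at 40 µg/kg/day, whereas the design text gives 250 µg/mL in the drinking water, and the dose scale was not settled. There were 4 libraries of BPA males, 4 of control males, 4 of BPA females and 4 of control females, each from a separate mouse sample. The labels of the other pups say only that they are controls, with no further word on their mothers' water. Of 10 BPA and 9 control mice in the study, 16 gave RNA, taken from the cells left over after chromatin was prepared from part of each sort.

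Myelin is the stack of oligodendrocyte membrane that is wrapped around an axon and squeezed until most of its cytoplasm is gone. Myelin basic protein holds the inner faces of the membrane together in the compact part, while channels of cytoplasm remain at the edges, next to the axon and beside the nodes. Oligodendrocytes begin to make the proteins of both parts as they leave the precursor stage, and in the mouse brain this takes place mostly in the first weeks after birth. The 9 genes cover both parts. Mbp, Mobp, Cldn11 and Mal encode proteins of compact myelin, whereas the products of Mag, Mog, Opalin, Cnp and Ermn lie mainly at its surface, along the axon or in the cytoplasmic channels and loops, so "compact" describes only some of the set.

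Total counts per library lay between 23603816 and 42575326. O4 is present on late precursors as well as on oligodendrocytes, and marker lists showed which other cells left RNA in the sort. Summed over 15 astrocyte genes the level was 1541 to 10605 CPM (counts scaled to a common library size), over 15 microglia genes 577 to 2378 CPM and over 10 precursor genes 2136 to 4246 CPM, against 53333 to 74370 CPM over the 9 myelin genes. Neuronal genes summed to at most 36.1 CPM, and 4 Schwann cell genes to at most 2.75 CPM, with 2 of those 4 at 0 in at least 1 library. A pair of BPA libraries stood apart. Male BPA 2 had the highest astrocyte sum, 10605 CPM against 4140 CPM in the next library, and all 15 astrocyte genes were at their highest there. It was also the highest for endothelial genes, at 145 CPM against 131 CPM in the next library (6 of 8 genes highest), and for mural and fibroblast genes, at 120 CPM against 76.8 CPM (7 of 10 genes highest). Ependymal and choroid plexus genes summed to 120 to 687 CPM, with the highest value in female control 4. Female BPA 1 had the highest microglia sum, 2378 CPM against 1914 CPM in the next library, and 14 of the 15 microglia genes were at their highest there. Litter and batch are not labelled. Mice of a group may be littermates exposed through 1 mother, so the p-values speak only for the spread among these animals and may be too small. In sorted bulk RNA, fewer cells of a type and less RNA per cell cannot be told apart.

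The 9 genes were among the most abundant messages of the sorted cells and together took 6.66% ± 0.397 of all counts (SD, n = 16). The share was 6.71% ± 0.775 in BPA males, against 6.66% ± 0.219 in control males, and 6.55% ± 0.306 in BPA females, against 6.73% ± 0.14 in control females (SD, n = 4 each). It was lowest in male BPA 2, at 5.57%, and highest in male BPA 3, at 7.29%, so both ends of the range lay in 1 group. Mbp alone took between 1.36% of the counts in male BPA 2 and 1.98% in male control 3, as shares before any scaling between libraries.

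Genes can be ranked against each other only per length, and the authors' deposited counts, normalized and divided by the median transcript length in kb, allow this. Mobp, a small basic protein of the compact myelin interior, was highest at 458832 ± 48333 normalized counts per kb (SD, n = 16 for all genes in this order). Mbp followed at 335501 ± 35348, Cnp at 210258 ± 17471 and Mag at 176587 ± 12600. Each of these genes was above the next in 16 of 16 libraries. Mal at 149792 ± 21087 and Cldn11 at 138029 ± 11998 could not be ordered in the same way, because Mal was the higher in only 12 of 16 libraries. Mog stood at 92883 ± 11443, above Ermn and Opalin in every library. Ermn at 9731 ± 1459 and Opalin at 8209 ± 1117 formed the bottom of the order, with the mean of Mog 9.55 times that of Ermn and with Ermn the higher in 15 of 16 libraries. The order rests on the authors' lengths. Mobp gives many transcripts of very unequal length, and the length that the deposited values imply for it is 0.569 kb, against 1.803 kb for Mbp. In CPM, with no length scaling, Mbp was the highest at 17646 ± 1852, and Cnp and Mag were also above Mobp at 7613 ± 786 (SD, n = 16).

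**Figure D1:**
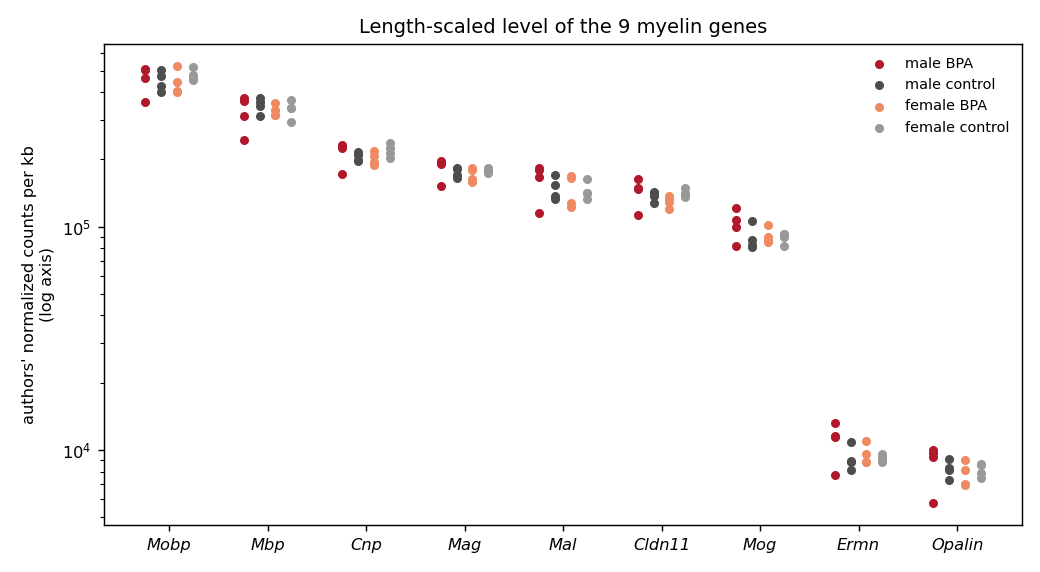
Length-scaled level of the 9 myelin genes. Each point is 1 library, the vertical axis is the authors' normalized count per kb of median transcript length on a log axis, and colours mark the 4 groups. Genes run from Mobp, with a mean of 458832, to Opalin, with a mean of 8209, and the groups lie on top of each other within each gene.

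Promoter sequence is shown for the genes that hold a match to a motif of known regulators of myelin genes. The transcription factor Myrf binds CTGGCAC or CTGGTAC, and Sox10, with its relatives, binds forms such as ACAAAG. RefSeq (GRCm38.p6) windows of 250 bases before the annotated start were matched by symbol for 8 of the 9 genes, all but Mbp. In the sequences that follow, each read 5′ to 3′ on the strand of the gene, capitals mark matches to these 3 motifs on either strand, so that ACAAAG on the opposite strand reads CTTTGT. Mag is at chr7:30914864-30915113 (minus strand), Mog at chr17:37023399-37023648 (minus), Cnp at chr11:100574689-100574938 (plus), Opalin at chr19:41077114-41077363 (minus) and Mobp at chr9:120149492-120149741 (plus). Mag has 3 annotated starts, and the window of 1 of them is shown.
Mag: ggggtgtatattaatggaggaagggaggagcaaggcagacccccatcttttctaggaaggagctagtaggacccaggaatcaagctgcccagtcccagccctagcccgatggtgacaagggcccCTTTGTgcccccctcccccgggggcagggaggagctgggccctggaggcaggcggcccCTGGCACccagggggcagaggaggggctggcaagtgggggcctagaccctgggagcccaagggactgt
Cnp: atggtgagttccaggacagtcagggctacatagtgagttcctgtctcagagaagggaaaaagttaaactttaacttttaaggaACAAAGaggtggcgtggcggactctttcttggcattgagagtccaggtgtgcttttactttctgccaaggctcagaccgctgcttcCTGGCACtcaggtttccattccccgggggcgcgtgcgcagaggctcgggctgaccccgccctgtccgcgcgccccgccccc
Mog: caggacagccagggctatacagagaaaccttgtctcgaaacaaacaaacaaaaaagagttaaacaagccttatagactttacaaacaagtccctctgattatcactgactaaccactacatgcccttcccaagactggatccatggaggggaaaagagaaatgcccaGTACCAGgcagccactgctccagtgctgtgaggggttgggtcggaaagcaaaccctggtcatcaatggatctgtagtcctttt
Opalin: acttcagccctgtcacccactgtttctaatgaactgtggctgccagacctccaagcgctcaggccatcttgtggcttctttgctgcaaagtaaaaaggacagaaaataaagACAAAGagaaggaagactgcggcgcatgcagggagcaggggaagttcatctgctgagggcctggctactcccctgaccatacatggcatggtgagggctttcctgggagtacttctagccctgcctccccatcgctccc
Mobp: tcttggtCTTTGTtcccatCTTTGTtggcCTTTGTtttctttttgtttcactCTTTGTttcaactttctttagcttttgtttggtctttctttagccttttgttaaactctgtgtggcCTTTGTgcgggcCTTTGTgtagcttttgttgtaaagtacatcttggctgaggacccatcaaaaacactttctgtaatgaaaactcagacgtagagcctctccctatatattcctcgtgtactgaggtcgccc

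CTGGCAC lies 81 to 75 bases before the start of Cnp, on the strand of the gene. In the Mag window shown it lies 68 to 62 bases before the start, also on the strand of the gene. In the overlapping window of another Mag start it lies 9 to 3 bases before that start, and the window of the remaining start holds no match to it. It is found in 2 of the 8 genes, against 4.83% of 27025 genes with such a window. CTGGTAC is found on the opposite strand 83 to 77 bases before the start of Mog, which makes 1 of 8 genes, against 2.11% of all. ACAAAG matches Mag, Mobp, Cnp and Opalin, 4 of 8 genes, against 18.6% of all, and the Mobp window holds 6 copies, each on the strand opposite to the gene. Of 5 other motifs searched on both strands, CATTGT, another form of the Sox core, matched 1 of 8 genes (12.2% of all genes). GGGCGG matched 1 (35.4%), CCAAT 3 (37.5%), CAGCTG 0 (14.7%) and TATAAA 0 (14.3%). These matches describe letters in the windows and say nothing of binding in these cells.

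The main question was whether exposure to BPA before birth and during lactation changed the level of myelin messages. None of the 9 genes was called over both sexes: limma-voom gave 0 of 9 at an adjusted p under 0.05, where 0.0184% of all tested genes were called, and 0 of 9 at an unadjusted p under 0.05, where 7.68% of tested genes lay. The median log2 fold change of the 9 genes was -0.01, beside 0.003 over all tested genes. Over the 9 genes the 95% confidence intervals reached at most from 0.84-fold to 1.26-fold of control. The BPA and control libraries overlapped for all 9 genes, and 0.0857% of tested genes did not overlap between those groups.

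**Figure D2:**
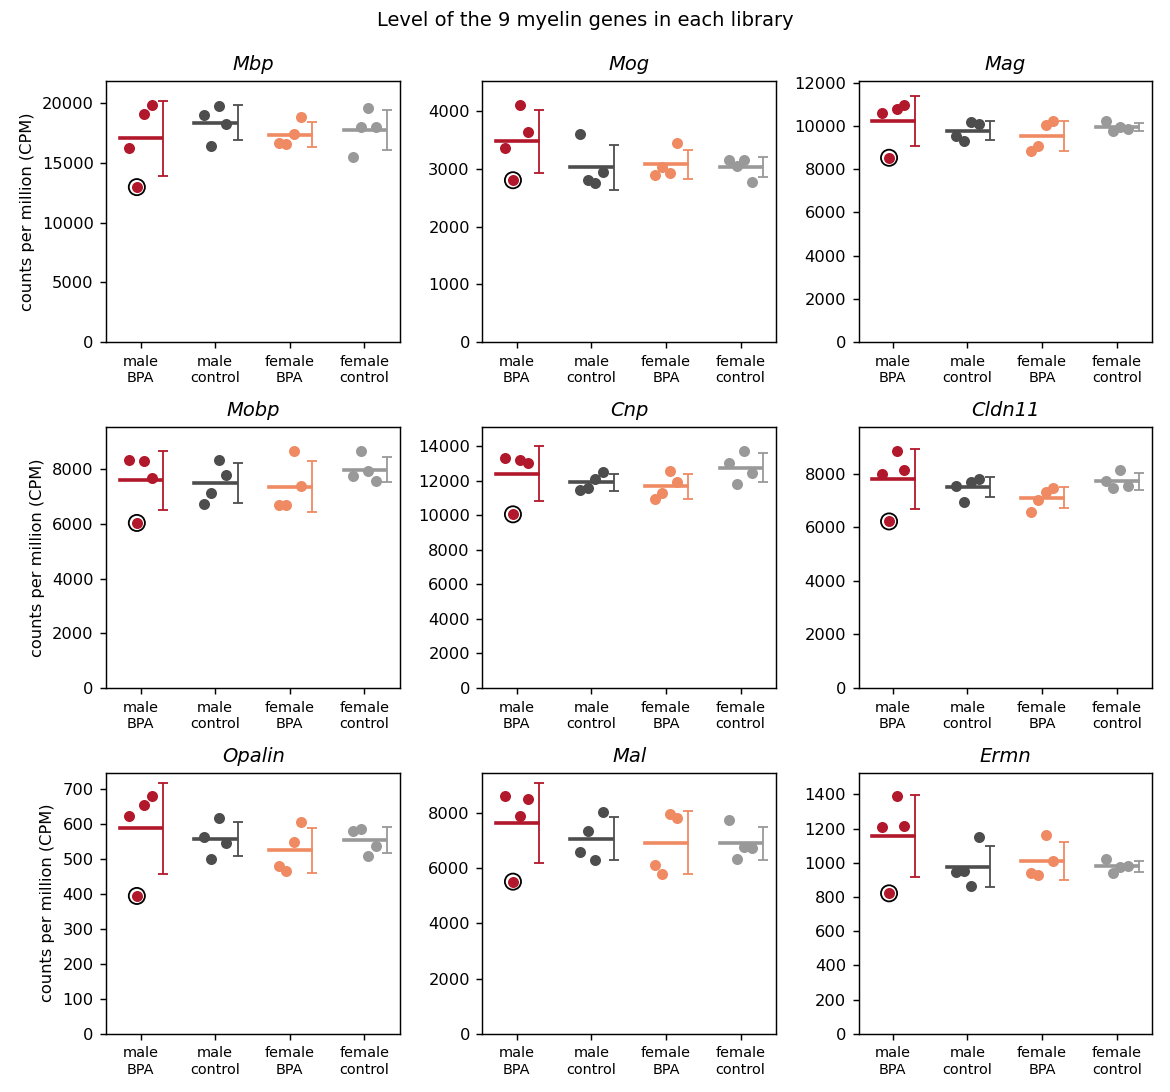
Level of each gene in CPM (linear axis from 0) in BPA and control mice of each sex. Points are libraries, horizontal bars are group means, error bars are SD (n = 4), and the open circle marks male BPA 2, the lowest male BPA library in all 9 panels.

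Among the proteins of compact myelin, Mbp, which binds the inner membrane faces together, had 16274, 12975, 19137 and 19868 CPM in BPA males, against 19046, 16435, 19796 and 18252 CPM in control males. It had 16679, 16543, 17400 and 18815 CPM in BPA females, against 15520, 17973, 19603 and 18012 CPM in control females. Male BPA 2 was the lowest of all 16 libraries and male BPA 4 the highest, and BPA and control libraries overlapped in both sexes. The log2 fold change was -0.12 ± 0.12 in males and -0.03 ± 0.12 in females (SE, limma-voom adjusted p 0.858 and 0.999). Over both sexes Mbp averaged 17211 ± 2169 CPM in BPA mice and 18080 ± 1488 CPM in controls (SD, n = 8 each). The log2 fold change was then -0.07 ± 0.08 (SE, limma-voom adjusted p 0.897).

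Mobp ranged from 6039 to 8344 CPM in BPA males, against 6726 to 8360 CPM in control males, and from 6681 to 8688 CPM in BPA females, against 7579 to 8658 CPM in control females. Cldn11, the tight junction protein that forms the radial component of myelin, had 6582, 7016, 7322 and 7468 CPM in BPA females, against 7719, 7456, 8148 and 7531 CPM in control females. None of the 4 BPA females lay above the control median, yet the groups still overlapped, since female BPA 4 was above female control 2. The log2 fold change of Cldn11 in females was -0.12 ± 0.09 (SE, limma-voom adjusted p 0.999), and in males it was 0.05 ± 0.09, with 7799 ± 1124 CPM in BPA males and 7497 ± 379 CPM in control males (SD, n = 4 each, limma-voom adjusted p 0.928). Mal, a small raft protein with 4 membrane spans that takes part in sorting membrane to myelin, varied the most with Opalin. It ranged from 5509 to 8598 CPM in BPA males, against 6297 to 8043 CPM in control males, and from 5778 to 7969 CPM in BPA females, against 6329 to 7755 CPM in control females. Over both sexes its log2 fold change was 0.05 ± 0.10 (SE, limma-voom adjusted p 0.957).

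Of the glycoproteins at the myelin surface, Mag, an adhesion molecule of the membrane that faces the axon, was the steadiest of the 9 genes. It had 10599, 8521, 10772 and 10971 CPM in BPA males, against 9536, 9285, 10179 and 10079 CPM in control males. It had 8855, 9058, 10014 and 10220 CPM in BPA females, against 10222, 9770, 9949 and 9865 CPM in control females. In males, 3 of the 4 BPA libraries lay above every control and male BPA 2 below every control, and in females 2 of 4 BPA libraries lay below every control and the other two among them. Its log2 fold change over both sexes was -0.00 ± 0.06 (SE, limma-voom adjusted p 0.998), with a 95% confidence interval from 0.92-fold to 1.09-fold.

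Mog, a glycoprotein of the outermost myelin surface and a classical target of demyelinating antibodies, had 3361, 2806, 4114 and 3645 CPM in BPA males, against 3610, 2803, 2751 and 2944 CPM in control males. Male control 1 lay above 2 of the 4 BPA males and male BPA 2 among the lower controls, so the groups overlapped. The log2 fold change in males was 0.20 ± 0.11 (SE, limma-voom p 0.087 before adjustment and 0.706 after it), the smallest p of the 9 genes in any of the comparisons. Mog ranged from 2905 to 3446 CPM in BPA females, against 2783 to 3164 CPM in control females, with a log2 fold change of 0.02 ± 0.11. Opalin, a glycoprotein made almost only by oligodendrocytes, had 621.2, 393.5, 652.4 and 677.9 CPM in BPA males, against 561.9, 498.1, 616.7 and 545.1 CPM in control males. Again 3 BPA males lay above every control and male BPA 2 below every control. Opalin ranged from 465.9 to 604.8 CPM in BPA females, against 507.5 to 585.5 CPM in control females. Its log2 fold change over both sexes was -0.01 ± 0.10 (SE, limma-voom adjusted p 0.989).

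Cnp encodes the enzyme CNPase, which keeps cytoplasmic channels open between the membrane layers. It had 13341, 10055, 13230 and 13043 CPM in BPA males, against 11470, 11553, 12109 and 12482 CPM in control males. It had 10930, 11268, 12570 and 11921 CPM in BPA females, against 13033, 11786, 13749 and 12430 CPM in control females. In males 3 BPA libraries lay above every control and male BPA 2 below every control, whereas in females no BPA library was above the control median. The log2 fold change was 0.05 ± 0.09 in males and -0.13 ± 0.09 in females (SE, limma-voom adjusted p 0.92 and 0.999). Ermn, which encodes the actin-binding protein ermin of the cytoplasmic loops, had 1207, 821, 1388 and 1216 CPM in BPA males, against 946.4, 950.5, 863.5 and 1151 CPM in control males. It ranged from 928.1 to 1165 CPM in BPA females, against 937.7 to 1020 CPM in control females. The male pattern was that of Mag, Opalin, Cnp and Cldn11, with 3 BPA libraries above every control and male BPA 2 below every control. The log2 fold change of Ermn was 0.23 ± 0.13 in males, the highest of the 9 genes, and 0.04 ± 0.13 in females (SE, limma-voom adjusted p 0.72 and 0.999).

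**Figure D3:**
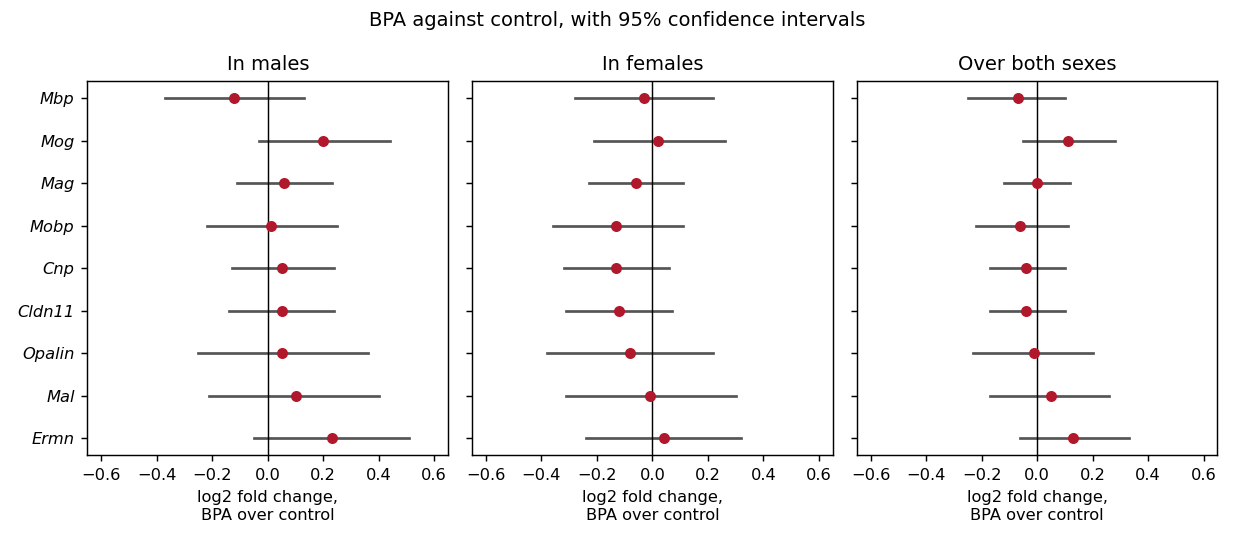
Log2 fold change of BPA over control (points) with 95% confidence intervals (lines) for the 9 genes in males, in females and over both sexes. The intervals of all 9 genes include 0 in the 3 panels; in males 8 of 9 points lie above 0 and in females 7 of 9 below.

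Taken by sex, limma-voom called 0 of 9 genes in males, where 0.00612% of tested genes were called, and 0 of 9 at an unadjusted p under 0.05, where 7.96% of tested genes lay. In females it called 0 of 9, where 0% of tested genes were called, and 0 of 9 at an unadjusted p under 0.05 (4.55% of tested genes). The libraries of BPA and control mice overlapped for all 9 genes in each sex, while 4.45% of tested genes in males and 3.33% in females did not overlap. The median log2 fold change was 0.05 in males, with 8 of 9 genes above 0, and -0.06 in females, with 7 of 9 below 0; over all tested genes the medians were 0.009 and 0.002. The difference of the BPA effect between the sexes, female minus male, was called for 0 of 9 genes (0% of tested genes) and had an unadjusted p under 0.05 for 0 of 9 (4.72% of tested genes). Its median was -0.14 over the 9 genes and -0.015 over all tested genes, and the intervals of single genes reached from 0.67-fold to 1.36-fold. Females against males, averaged over exposure, gave 0 of 9 calls (0.0673% of tested genes) and 0 of 9 at an unadjusted p under 0.05 (4.35%), with groups that overlapped for all 9 genes (0.0857% of tested genes did not overlap). The median was -0.04, and the intervals stayed between 0.81-fold and 1.14-fold.

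Leaving out male BPA 2 moved the values in males and those that include males, while in females the median stayed at -0.06, with 0 of 9 genes at an unadjusted p under 0.05 by limma-voom. Without it, log2 fold changes in males ranged from 0.00 for Mbp to 0.38 ± 0.10 for Ermn, with a median of 0.15 beside -0.006 over all tested genes. Ermn then had a limma-voom p of 0.00119 before adjustment and 0.222 after it, and Mog stood at 0.30 ± 0.10 with adjusted p 0.306. No gene was called by limma-voom, 0 of 9 members and 0% of 16460 tested genes, while 6 of 9 members had an unadjusted p under 0.05 with a positive fold change, as did 4.81% of tested genes. The 3 remaining BPA males lay above all 4 control males in Mag, Cnp, Cldn11, Opalin and Ermn, 5 of 9 genes, and 4.9% of tested genes had such a gap. The difference of the BPA effect between the sexes had a median of -0.27 without this library. There 0 of 9 members were called (0% of tested genes), and 5 of 9 had an unadjusted p under 0.05 with a value below 0, as did 4.05% of tested genes. The mean of the remaining BPA males is higher by construction, since the library left out was the lowest of its group for all 9 genes. Male BPA 2 was also the library with 10605 CPM of astrocyte markers, and without it the astrocyte list had a median log2 fold change of -0.37 in males, against 0.20 with it. The part of astrocyte RNA in the level of the myelin genes was not tested. Without female BPA 1, the median in females was -0.03 and no member had an unadjusted p under 0.05.

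The spread between mice of the same group differed among the 9 genes. With group means taken out, the SD on the log2 scale was 0.11 for Mag, 0.12 for Cnp, 0.13 for Cldn11, 0.16 for Mog and Mobp, 0.17 for Mbp, 0.20 for Ermn, and 0.22 for Opalin and Mal. The median over the 80 genes that averaged 1000 CPM or more was 0.14 and over all tested genes 0.19. The SD was above that of 21.2% of those 80 genes for Mag, 37.5% for Cnp and 42.5% for Cldn11. It was above that of 68.8% for Mobp, 70% for Mog, 75% for Mbp, 88.8% for Ermn, 91.2% for Mal and 92.5% for Opalin, so 6 of the 9 genes varied more than the median abundant gene. Opalin, with a mean of 554.4 CPM, is itself not among those 80 genes. These SD include male BPA 2, and values without it are not given here. All 9 genes had their lowest deviation in male BPA 2, between -0.54 for Opalin and -0.25 for Mag. All 9 also lay below their group mean in female BPA 1, by at most -0.17, and in female BPA 2, by at most -0.24. All 9 lay above it in male BPA 3, male BPA 4 and female BPA 4. Male BPA 2 lowers the mean of its group, so the other BPA males are raised against that mean by construction. In the 8 control libraries the genes did not move as a block: between 2 and 8 of the 9 were below the group mean in each.

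**Figure D4:**
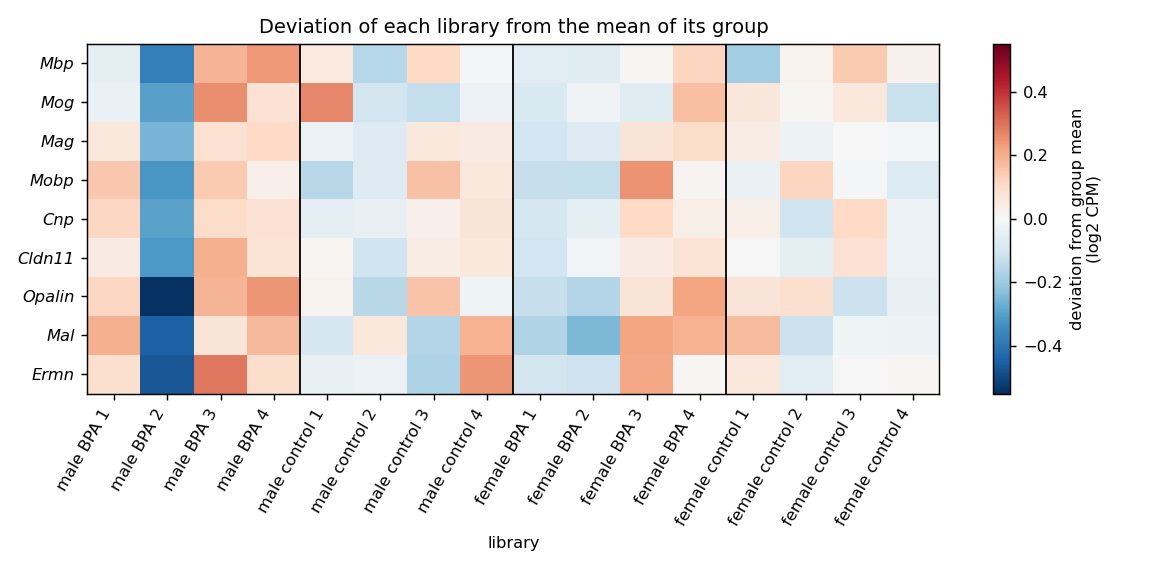
Deviation of each library (columns) from the mean of its group in log2 CPM for each gene (rows), with black lines between the groups. The column of male BPA 2 is the darkest, from -0.54 to -0.25, and single control columns hold both signs.

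After subtraction of the group means, the 9 genes correlated with each other over the 16 libraries. The median Pearson r over the 36 pairs was 0.74, from 0.25 for Mog with Mobp to 0.94 for Mag with Opalin, and the median Spearman rho was 0.62. A permutation test within groups (100000 permutations, two-sided, Benjamini-Hochberg over the 36 pairs) gave an adjusted p under 0.05 for 18 pairs by r and for 16 by rho. Mag with Opalin had rho 0.88 (permutation p 0.0019 for r and 0.002 for rho, adjusted 0.017 and 0.016), and r was 0.85 without the 2 libraries farthest from the Mag median. Cnp with Cldn11 had r 0.90 and rho 0.81 (permutation p 0.00035 and 0.0026, adjusted 0.013 and 0.016), and Mal with Ermn r 0.86 and rho 0.88 (permutation p 0.0019 and 0.00073, adjusted 0.017 and 0.013). Without the 2 farthest libraries, r was 0.79 for Cnp with Cldn11 and 0.73 for Mal with Ermn. For each r without 2 libraries, the group means still included those libraries. Mbp and Mog were the least tied to the rest, with a median r to the other members of 0.66 and 0.57, whereas Mag and Cldn11 had 0.82 and 0.83. The median r of a member with all tested genes lay between -0.07 and 0.01.

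These correlations rested largely on male BPA 2. Without that library the median r was 0.42, from -0.25 to 0.81, and 0 of 36 pairs passed by r or by rho. Without the 2 libraries farthest from the median of the first gene, chosen anew for each pair, the median r was 0.57. There the group means still included those 2 libraries, whereas the other leave-outs took new means. With new means and male BPA 2 and female BPA 1 both left out, the median r was 0.35 and the highest 0.79. Without female BPA 1 the median r was 0.73 and 7 pairs passed. Mag with Opalin kept r 0.81 over the 15 libraries without male BPA 2, and Mag with Cldn11 0.72, while Mbp with Mal had -0.14 and Mog with Mobp -0.25. Mag with Cnp had r 0.89 over 16 libraries and 0.70 over 15, and Cnp with Cldn11 had 0.90 and 0.71.

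**Figure D5:**
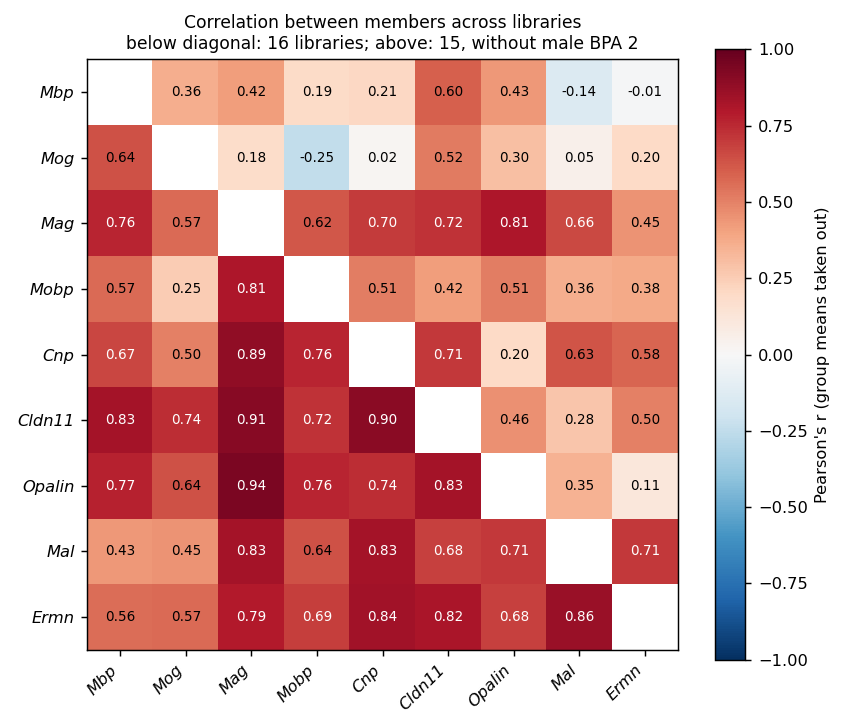
Pearson's r between the 9 genes over libraries after subtraction of the group means, on a colour scale from -1 to 1. Cells below the diagonal use all 16 libraries and those above it the 15 libraries without male BPA 2, where the median is 0.42, against 0.74 with it.

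The genes whose pattern over the 16 libraries was most like that of the members were picked from 8921 genes that averaged 10 CPM or more, by Pearson r with the mean standardised deviation of the 9 genes. They were Trnt1 (r 0.96), which adds the CCA end to transfer RNAs, Prkcz (0.95), an atypical protein kinase C, Rhog (0.95), a small GTPase, Pak1 (0.95), a kinase downstream of Rac and Cdc42, Dctn2 (0.94), a dynactin subunit, and Cers2 (0.94), the ceramide synthase for the very long chain sphingolipids of myelin. An r above 0.8 was found for 4.75% of the genes compared. Without male BPA 2 it was found for 0.897%, and r was 0.94 for Cers2, 0.91 for Trnt1, 0.87 for Prkcz, 0.79 for Rhog, 0.78 for Pak1 and 0.79 for Dctn2.

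No gene of the other myelin lists was called over both sexes either, and the median of all tested genes to set beside the list medians is 0.003. To set beside the list counts, limma-voom called 0.0184% of all tested genes over both sexes, and 7.68% had an unadjusted p under 0.05. Of 19 further myelin membrane genes, limma-voom called 0 over both sexes and 2 had an unadjusted p under 0.05, with 9 above and 10 below 0 and a median log2 fold change of -0.02. The smallest p were those of Tmem63a, a mechanosensitive ion channel, and Pmp22, a tetraspan protein best known from peripheral myelin. Tmem63a averaged 420.9 ± 56.7 CPM in BPA mice and 350.3 ± 35.7 CPM in controls (SD, n = 8 each), which is 0.26 ± 0.08 on the log2 scale (SE, limma-voom adjusted p 0.388). Pmp22 averaged 40.32 ± 9.92 CPM in BPA mice and 31.25 ± 5.83 CPM in controls, which is 0.37 ± 0.14 on the log2 scale (limma-voom adjusted p 0.517). Pllp, or plasmolipin, was at -0.12 ± 0.06 and Cd9, a tetraspanin, at -0.10 ± 0.08 (limma-voom adjusted p 0.679 and 0.835).

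Of 22 myelin cytoskeleton and enzyme genes, 0 were called by limma-voom and 2 had an unadjusted p under 0.05, with 13 above 0 and a median of 0.03. These were Qdpr, which recycles tetrahydrobiopterin, at -0.28 ± 0.10 (315.2 ± 57.3 CPM in BPA mice and 377.1 ± 29.2 CPM in controls), and Padi2, which citrullinates myelin basic protein, at 0.43 ± 0.20 (253.1 ± 77.7 CPM in BPA mice and 186.3 ± 52.3 CPM in controls). Their limma-voom adjusted p were 0.516 and 0.63. Anln, a septin-binding scaffold protein, stood at 0.22 ± 0.11 and Serpinb1a, a protease inhibitor at a low level of 3.623 ± 1.05 CPM in BPA mice and 2.767 ± 0.709 CPM in controls, at 0.39 ± 0.18 (limma-voom adjusted p 0.672 and 0.66). In males 17 of these 22 genes were above 0 and in females 6, with medians of 0.08 and -0.04. Without male BPA 2 the male count was 19 and the male median 0.17.

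Of 13 transcription factors of oligodendrocytes, limma-voom called 0 over both sexes and 4 had an unadjusted p under 0.05, while 12 of 13 lay below 0 with a median of -0.09. Sox8 was at -0.35 ± 0.14, with 266.4 ± 54.1 CPM in BPA mice and 339.1 ± 64.4 CPM in controls, and Tcf7l2, an effector of Wnt signalling, at -0.22 ± 0.10. Olig2 was at -0.17 ± 0.07, with 527.1 ± 68.8 CPM in BPA mice and 591.9 ± 52.9 CPM in controls, and Olig1 at -0.13 ± 0.06. The limma-voom adjusted p of these 4 were 0.541, 0.607, 0.541 and 0.631. Male BPA 2 was the lowest library for 10 of the 13. Without it 10 of 13 lay below 0 over both sexes, with a median of -0.05 and 2 at an unadjusted p under 0.05 (8.33% of tested genes). In males alone 13 of 13 lay below 0 with that library (median -0.11) and 7 of 13 without it (median -0.00). In females 10 of 13 lay below 0, with a median of -0.07. Of 8 genes for RNA-binding proteins and messenger RNA transport, 0 were called by limma-voom, 2 had an unadjusted p under 0.05 and 7 lay below 0, with a median of -0.03. Qk, or quaking, which controls splicing and stability of myelin messages, averaged 2581 ± 276 CPM in BPA mice and 2889 ± 175 CPM in controls, or -0.17 ± 0.07 on the log2 scale (limma-voom adjusted p 0.546). Fyn, the kinase that releases Mbp message for translation, was at -0.20 ± 0.09 (limma-voom adjusted p 0.631), Hnrnpf at -0.05 ± 0.04 and Elavl1 at -0.04 ± 0.04.

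Of the lists of earlier stages, the precursor list had its medians on the other side of 0 from those of the 9 myelin genes in both sexes, a contrast that was not tested. In males 9 of 10 precursor genes were below 0, with a median of -0.35 and 4 at an unadjusted p under 0.05 (7.96% of tested genes). In females 10 of 10 were above 0, with a median of 0.16 and 1 at an unadjusted p under 0.05 (4.55% of tested genes). The female minus male difference had a median of 0.55 for the precursor genes, with 6 of 10 at an unadjusted p under 0.05 (4.72% of tested genes), and of -0.14 for the 9 myelin genes. The summed precursor level was 2136 to 3225 CPM in BPA males, against 2967 to 3279 CPM in control males. It was 2255 to 4246 CPM in BPA females, against 2580 to 3131 CPM in control females, so the groups overlapped in both sexes. In males the overlap came from male BPA 2 alone, at 3225 CPM. The next BPA male had 2436 CPM, below every control male. Without male BPA 2 the precursor median in males was -0.34. That library is not part of the female difference, so leaving it out is no check of the female values. In BPA females the sum next below that of female BPA 2 was 3141 CPM, against at most 3131 CPM in control females. Values of this list without female BPA 2 were not computed. The 13 genes of committed and newly formed oligodendrocytes, which include Fyn and Tcf7l2, had a median of -0.24 in males, with 11 below 0. In males 4 of the 13 had an unadjusted p under 0.05 by limma-voom (7.96% of tested genes). Their summed level was 6004 to 7013 CPM in BPA males, against 7156 to 8689 CPM in control males, so these groups did not overlap. In females the median was -0.00, with 6 above and 7 below 0. There the sums overlapped, at 6256 to 9640 CPM in BPA females against 6880 to 7757 CPM in control females. The sums were not tested. No gene of either list was called by limma-voom in either sex. The precursor sum was highest in female BPA 2, at 4246 CPM, 1 of the 3 libraries in which all 9 myelin genes were below their group mean, and lowest in male BPA 3, at 2136 CPM, where all 9 were above it. The group mean of male BPA 3 includes male BPA 2, which lowers it. Microglia genes were above 0 for 15 of 15 over both sexes, with a median of 0.24 and none called or at an unadjusted p under 0.05 by limma-voom, and astrocyte genes for 13 of 15, with a median of 0.15. Of 9 tested mural and fibroblast genes 8 were above 0, with a median of 0.43, and of 6 ependymal and choroid plexus genes 5 were above 0, with a median of 0.40. Without male BPA 2 those medians were 0.20 for microglia, -0.16 for astrocytes, 0.20 for mural cells and fibroblasts and 0.32 for ependymal cells and choroid plexus. The part of the cell mixture in these values was not tested.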

How the data were processed

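Poly(A) RNA was sequenced with a strand-specific kit, per the labels' protocols. The submitters' processing notes name bcl2fastq (2.20.0.422), the aligner STAR (2.5.3a), HTSeq (0.6.1p1), DESeq2 as used by the authors (1.16.1) and the genome build mm39. The table deposited by the authors holds whole-number counts per gene, the same counts divided by size factors, and those values divided by median transcript length in kb. Because of the table's mixed separators, a check of units could not parse it, and all deposited columns are therefore recorded under the unit score, their content being known from the headers and values.

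For that reason the planned quasi-likelihood test was not used, and limma-voom took its place, fitted to the counts of all 16 libraries (limma 3.58.1, R 4.3.3, 1 coefficient per group, robust empirical Bayes). Genes needed the CPM equal to a count of 10 in the median library, in at least 4 libraries, and a total count of 15. Scaling used trimmed means of M values (TMM) in a re-implementation tested on simulated data, and CPM are counts scaled to this common library size. Tests are two-sided, adjusted by Benjamini-Hochberg over all tested genes with a threshold of 0.05. Deviations of same-numbered libraries of different groups had r from -0.36 to 0.43, with 11 of 24 pairs over 0.1, against a median of -0.01 in other pairs. For 5 of 16 libraries the best match had the same number. The labels name no litter or batch, and the libraries were not treated as paired. A fit with a replicate block is among the alternatives.

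The 9 genes and the lists were chosen with earlier results of these data known. Named genes are the 9 members, up to 4 genes of each list by smallest p over both sexes, and the 6 most like the members. Symbols come from GENCODE M21 (31717 of 32207 IDs) and promoters from RefSeq, both on GRCm38. Cnp overlaps Dnajc7 and Ermn overlaps Galnt5 on the opposite strand, and Mobp shares exon bases with Gm38642 on its own strand; whether counting used the strand is not given in the sources used here. At most 0.781% of the 50-base words of a member's transcripts occur in other genes.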

Additional observations from a re-analysis of the deposited data

Results flagged for a closer look

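Within the 4 BPA males, Mag was at 8521 CPM in male BPA 2, against 10599 to 10971 CPM in the other BPA males, and Cnp was at 10055 CPM there, against 13043 to 13341 CPM. In both cases 1 sample lay far from the rest of its group by Dixon's test at the 95% level. Chance flags about 1 in 20 groups, and 40 groups were tested (the 9 genes and their summed share of counts, each in 4 groups). The other 7 genes were also lowest in male BPA 2 among BPA males, without passing the test. The same library held the highest astrocyte, endothelial and mural marker sums, and the part of this in both values was not tested.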

How the results depend on the processing

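Over 21 alternatives, 918 values of single members were recomputed and none was called by limma-voom; the lowest adjusted p was 0.222. Direction was compared only where the log2 fold change exceeded its SE, and 2 values reversed: Mbp in males was 0.00 without male BPA replicate 2 and 0.01 with male BPA 2 and female BPA 1 left out, against -0.12; it ranged from -0.19 to 0.00 with 1 library left out at a time. Without male BPA replicate 2 the median difference between the sexes was -0.27; over all alternatives it ranged from -0.27 to -0.09. The other medians ranged from -0.04 to 0.07 over both sexes, 0.03 to 0.16 in males, -0.09 to -0.02 in females and -0.09 to -0.02 for females against males.

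With 1 library left out at a time, the number of all genes called ranged from 0 to 5 over both sexes, 0 to 3 in males and 0 to 3 for the difference between the sexes. With male BPA 2 and female BPA 1 both left out it was 0 over both sexes and 0 in males. With no filter on low counts it was 2 in males and 2 in females, and with only the libraries of that sex 4 in males and 1 in females. With a replicate block it was 0 over both sexes, and the block changed no call of a member (0 of 9 in each comparison). In pairs of members, 0 passed and the median r was 0.35 with both libraries left out. Leaving out male BPA 2 or female BPA 1 alone, chosen after seeing the data, gave 0 to 7 pairs and a median r of 0.42 to 0.73. The causes were not tested.

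A DESeq2 test was intended and not run because the authors' columns were not accepted as counts. Limits are 4 libraries a group, unknown litters, and a length scale set by the authors. Differences within the intervals given were not detectable at this size.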
